A study of Mus musculus with 10 samples.

Results

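A set of 10 Golgi enzymes that trim and rebuild the N-linked sugars of antibodies were followed in 10 RNA-seq libraries of germinal centre-derived splenic plasma cells from mice. The genes were taken as a fixed list of symbols, 10 of the 47719 gene identifiers in the files: the mannosidases Man1a, Man1a2 and Man2a1, the N-acetylglucosamine (GlcNAc) transferases Mgat1, Mgat2 and Mgat3, the fucosyltransferase Fut8, the galactosyltransferases B4galt1 and B4galt3, and the sialyltransferase St6gal1. All 10 symbols matched 1 identifier each. In all, 5 libraries came from IgM and 5 from IgG1 plasma cells. Every donor B cell, in both groups, carried S1PR2-CreERT2 (a Cre recombinase that tamoxifen switches on, under control of a gene used by germinal centre B cells), the Ai14 reporter (tdTomato after Cre acts) and B1-8germ, a heavy chain in germline form that recognises the hapten NP. The cells were placed in wild-type hosts, which were immunised with NP-CGG/alum (day 0) and then received tamoxifen (days 5 and 6), and tdTomato+ donor plasma cells of each isotype were sorted from the spleen (day 10). The mark is present only in cells in which Cre was active around the tamoxifen days and in descendants of such cells. Other plasma cells of the same response were therefore outside both groups. The labels used here give neither the age nor the number of animals, and nothing in them says whether the 5 libraries of an isotype are from different mice. All p-values below therefore rest on the spread among libraries, which may be technical.

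Antibody heavy chains receive preformed mannose-rich glycans in the endoplasmic reticulum, and the Golgi enzymes then act in a fixed order. Mannosidases of class I (Man1a, Man1a2) remove outer mannoses, Mgat1 adds the first branch GlcNAc, Man2a1 removes further mannoses, and Mgat2 adds the second branch GlcNAc. Fut8 adds the core fucose, Mgat3 adds a bisecting GlcNAc, B4galt1 and B4galt3 add galactose, and St6gal1 caps galactose with sialic acid in alpha 2,6 linkage. On IgG, the Fc glycan made in this way is known for its effect on Fc receptor binding: absence of core fucose strengthens binding to some activating receptors, and terminal galactose and sialic acid are linked to less inflammatory activity. The mu heavy chain carries several N-glycan sites, part of which stay mannose-rich, whereas the gamma 1 heavy chain carries a single conserved site in its Fc part.

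Depth was estimated from the steps between the lowest values, with fragments of 200 bases assumed, and came to 26800000 to 31100000 fragments in IgM libraries and 26300000 to 37600000 fragments in IgG1 libraries. Every IgG1 library had fewer genes above 0 (13286 to 13961) than every IgM library (15121 to 15800), and the part of this in the enzyme differences was not tested. The values are FPKM, fragments scaled to transcript length and library size, so levels of different genes can be set side by side per length. Each heavy chain gene was higher in the libraries of its label: Ighm was at 85380 against 1170 FPKM and Ighg1 at 14970 against 93810 FPKM (mean of IgM against IgG1 libraries). IgM libraries thus also held much Ighg1 RNA, whose source was not tested. Summed over 6 plasma cell markers, levels ran from 39720 to 43930 FPKM in IgM and from 23220 to 26670 FPKM in IgG1 libraries, mostly Jchain, and of 6 tested markers 5 were lower and 1 higher in IgG1. Prdm1, a regulator of plasma cell identity, averaged 53.5 against 29.2 FPKM and Tnfrsf17, a plasma cell survival receptor, 137.7 against 48.3 FPKM (IgM against IgG1). Sdc1 and Irf4 were less far apart, at 283.8 against 258.4 FPKM and 65.5 against 55.7 FPKM. The 1 higher marker was Xbp1, at 2928 against 3194 FPKM. Summed over 6 B cell markers, levels ran from 116 to 139 FPKM in IgM and from 77.7 to 95.7 FPKM in IgG1 libraries, with 3 of 3 tested markers lower in IgG1. These small marker counts stand beside 20.2% lower and 18.1% higher among all tested genes. Ms4a1, a B cell surface protein, had means of 62.9 FPKM in IgM and 42.9 FPKM in IgG1 libraries, and Pax5, which defines B cells, had a mean of 0.0704 FPKM in IgM and 0.0600 FPKM in IgG1 libraries. Both the plasma cell and the B cell sums moved the same way as most of the enzymes below, and their part in those differences was not tested. T cell, myeloid and erythroid markers summed to at most 5.60 FPKM in any library, and S100a8 and S100a9 were listed at 0 in all 10.

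Most of the enzymes differed between the isotypes, and the difference ran both ways along the pathway. The mannosidases Man1a, Man1a2 and Man2a1, the core fucosyltransferase Fut8, the galactosyltransferase B4galt3 and the sialyltransferase St6gal1 were lower in IgG1 cells, and the branch-starting enzymes Mgat1 and Mgat2 were higher. Of the enzymes, 9 averaged 1 FPKM or more over the 10 libraries, and 8 of these passed the test (limma on log2 of FPKM plus 1, Benjamini-Hochberg adjusted p under 0.05 over 9900 genes), 2 higher and 6 lower in IgG1. Over all tested genes 38.3% passed, 18.1% higher and 20.2% lower. With the filter at 5 FPKM, which all 9 enzymes pass, 3252 of 6865 genes passed the test, 1714 higher and 1538 lower. The enzymes again gave 2 higher and 6 lower. The median log2 difference, IgG1 minus IgM, was -0.51 over the 9 enzymes and -0.05 over all tested genes. In 7 of the 9 the values of the groups did not overlap, against 26.3% of all tested genes. Mgat3 was not tested because of its low level. In bulk RNA, fewer cells that express a gene and less of its RNA per cell cannot be told apart. Quantile normalization moved the median over all genes to 0.06, and the split of all calls from 1791 higher and 2001 lower to 2182 and 1510.

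**Figure D1:**
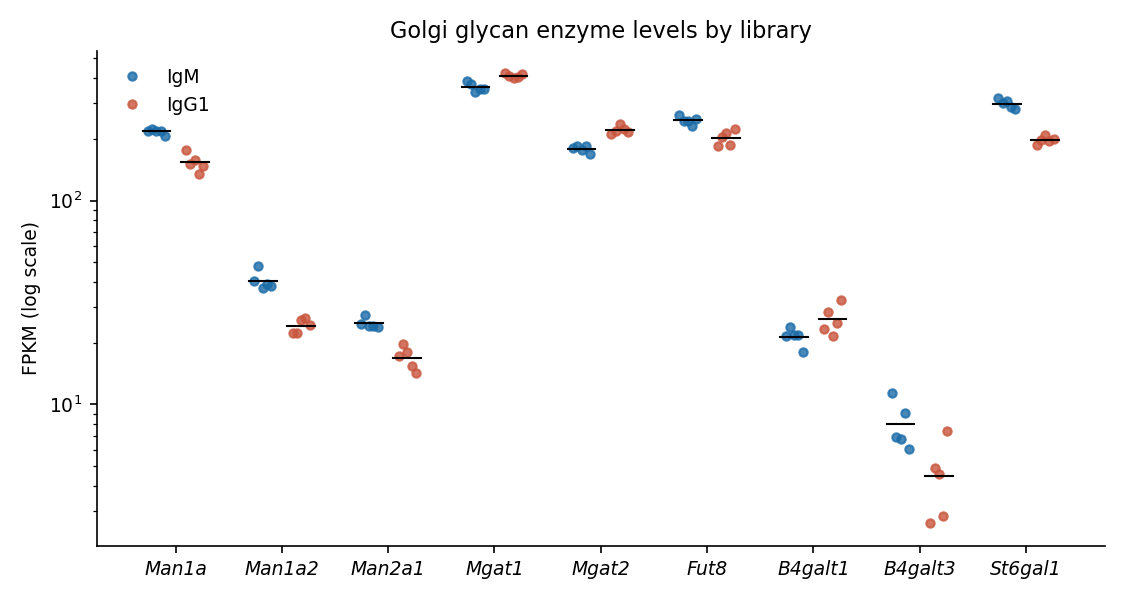
FPKM on a log scale (vertical axis) of the 9 tested enzymes (horizontal axis) in 5 IgM (blue) and 5 IgG1 (red) libraries, where each point is a library and each bar a group mean. IgG1 points lie below IgM points for Man1a, Man1a2, Man2a1, Fut8 and St6gal1 and above them for Mgat1 and Mgat2, while the groups overlap for B4galt1 and B4galt3.

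The size of these differences has to be read beside a trend over all genes with the length and GC content of their transcripts. When the tested genes were split into 4 groups of like size by transcript length, the median log2 difference was 0.15 in the group with the shortest transcripts and -0.21 in that with the longest. Split in the same way by GC content, it was -0.27 in the lowest and 0.13 in the highest group. Man1a, Man1a2, Man2a1 and St6gal1 belong to the group of the longest transcripts, Man1a2 and Fut8 to the group of lowest GC content, and Mgat1 to that of highest GC content. With both trends removed from each library, 2 enzymes were higher and 4 lower, with a median log2 difference of -0.25 over the 9 enzymes and 0.05 over all genes, of which 2154 were then higher and 1320 lower. St6gal1, Man1a, Man1a2 and B4galt3 stayed past the test on the lower side and Mgat2 on the higher side. The calls of Man2a1, Fut8 and Mgat1 ended, and B4galt1 passed as higher.

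**Figure D2:**
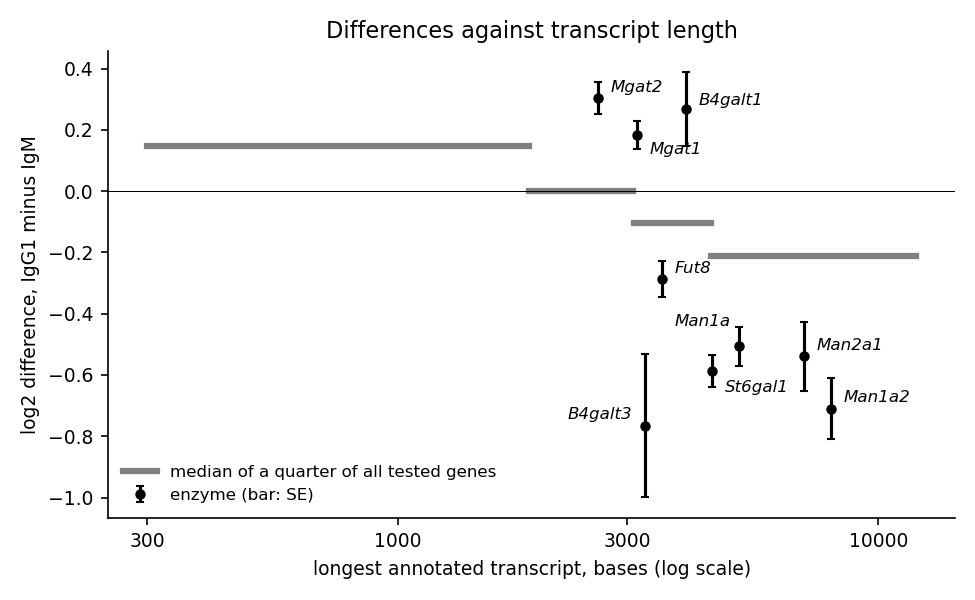
Log2 difference, IgG1 minus IgM (vertical axis), against the length in bases of the longest annotated transcript (horizontal axis, log scale, trimmed at both ends), where points with SE bars are enzymes and grey lines are medians of 4 groups of all tested genes by length. The grey medians step down from 0.15 to -0.21 with length. All 9 tested enzymes, among them Mgat2 at 0.30 and St6gal1 at -0.59, lie farther from zero than the median of their group.

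Upstream sequence is shown for 3 enzymes, so that the start of St6gal1 and of Man1a, which were lower in IgG1, can be set beside that of Mgat2, which was higher. Each run lies within the 250 bases before a start in RefSeq (GRCm38.p6), is given 5′ to 3′ on the gene's strand, and is the longest stretch of that window outside every exon in GENCODE M21. Capitals mark matches on either strand to CCAAT (the CCAAT box), GGGCGG (the GC box), ACGTG (core of sites bound by XBP1 among other factors) and CCACG (part of the endoplasmic reticulum stress element). ACGTG and CCACG overlap where both occur as CCACGTG. For St6gal1, 2 of its 3 starts are shown, and the values, 1 per gene, do not say which start was used.
Mgat2 (chr12:69184084-69184156, plus strand): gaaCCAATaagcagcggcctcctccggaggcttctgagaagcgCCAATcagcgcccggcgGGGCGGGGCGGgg
Man1a (chr10:54075797-54075921, minus strand): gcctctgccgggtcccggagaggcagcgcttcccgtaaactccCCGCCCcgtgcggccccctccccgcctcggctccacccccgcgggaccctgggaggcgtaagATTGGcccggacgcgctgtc
St6gal1, first start (chr16:23224490-23224739, plus strand): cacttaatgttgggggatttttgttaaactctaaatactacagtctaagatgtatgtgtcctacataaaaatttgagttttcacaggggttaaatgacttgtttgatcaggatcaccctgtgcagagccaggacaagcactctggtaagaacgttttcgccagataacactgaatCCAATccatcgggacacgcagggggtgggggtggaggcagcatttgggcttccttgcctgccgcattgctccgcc
St6gal1, second start (chr16:23225771-23226020, plus strand): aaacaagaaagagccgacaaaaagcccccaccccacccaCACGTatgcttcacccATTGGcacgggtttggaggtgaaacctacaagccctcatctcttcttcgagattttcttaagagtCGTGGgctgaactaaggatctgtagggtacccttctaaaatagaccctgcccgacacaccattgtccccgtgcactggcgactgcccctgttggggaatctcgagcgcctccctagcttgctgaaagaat

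The Mgat2 stretch of 73 bases holds 2 CCAAT and 2 GC box matches, and beyond it the window runs into exons of Rpl36al on the opposite strand. The Man1a stretch of 125 bases holds 1 CCAAT and 1 GC box match. Its window lies inside the annotated Man1a gene, which extends to 54076609. Of the window, 125 bases belong to exons of Man1a and Gm16998. Each St6gal1 stretch of 250 bases holds 1 CCAAT match and no GC box. The second also holds 1 CCACG match and the only ACGTG among all windows of the enzymes. The third St6gal1 start, not shown, has 2 CCAAT matches and no GC box. The full windows found for 8 of the enzymes numbered 15. GGGCGG was in 8 of the 15 and in 32.7% of 32851 RefSeq windows of the same length, CCAAT in 6 of 15 and in 33.8%, CCACG in 5 of 15 and in 28.3%, and ACGTG in 1 of 15 and in 16.6%. A match is only a run of letters, and its absence says nothing about binding of a factor.

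The 2 class I mannosidases, which trim outer mannoses early in the Golgi, were both lower in IgG1 cells. Man1a (chromosome 10, 53904785 to 54076609, minus strand, GRCm38) was at 219, 225, 219, 221 and 208 FPKM in IgM replicates 1 to 5 and at 176, 151, 159, 136 and 148 FPKM in IgG1 replicates 1 to 5. Every IgG1 library lay below every IgM library, and IgG1 replicate 1 was the nearest to them. The mean fell by 29.5%, from 218 ± 6.47 to 154 ± 14.97 FPKM (SD, n = 5 each; log2 difference -0.51, SE 0.06, limma adjusted p = 6.45e-06), and the log2 difference was -0.25 with length and GC trends removed (adjusted p = 0.0071).

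Man1a2 (chromosome 3, 100562208 to 100685503, minus strand), its relative with the same trimming activity, was less abundant. Its levels were 40.1, 47.9, 37.3, 39.1 and 38.2 FPKM in IgM and 22.3, 22.5, 25.8, 26.5 and 24.5 FPKM in IgG1 replicates 1 to 5. The groups did not overlap, and IgM replicate 2 was the highest library. Its mean fell by 39.9%, from 40.5 ± 4.23 to 24.3 ± 1.92 FPKM (SD, n = 5 each; log2 difference -0.71, SE 0.10, limma adjusted p = 1.72e-05), and the log2 difference was -0.32 with the trends removed (adjusted p = 0.0174).

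Man2a1 (chromosome 17, 64600736 to 64755110, plus strand), the class II mannosidase that acts after Mgat1, showed the same direction. It was at 24.8, 27.6, 24.2, 24.3 and 24.0 FPKM in IgM and at 17.2, 19.7, 18.1, 15.5 and 14.3 FPKM in IgG1 replicates 1 to 5. No IgG1 library reached the lowest IgM library. The mean fell by 32.1%, from 25.0 ± 1.48 to 17.0 ± 2.11 FPKM (SD, n = 5 each; log2 difference -0.54, SE 0.11, limma adjusted p = 9.58e-04). With the trends removed the log2 difference was -0.27 and did not pass (adjusted p = 0.0675).

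The 2 enzymes that start the antennae were both higher in IgG1 cells. Mgat1 (chromosome 11, 49244191 to 49263030, plus strand), which adds the first branch GlcNAc and opens the way to every later step, was the most abundant of the 10 in both groups. It stood at 385, 371, 341, 354 and 354 FPKM in IgM and at 421, 407, 399.8, 402 and 418 FPKM in IgG1 replicates 1 to 5. The groups did not overlap, although the lowest IgG1 and the highest IgM library were close. The mean rose by 13.5%, from 361 ± 17.3 to 409.6 ± 9.48 FPKM (SD, n = 5 each; log2 difference 0.18, SE 0.05, limma adjusted p = 0.00407). The call ended with the trends removed (0.09, adjusted p = 0.171) and without limma's trend and robust settings (0.18, adjusted p = 0.0559).

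Mgat2 (chromosome 12, 69184157 to 69186770, plus strand), which adds the second branch GlcNAc, stood at 181, 185, 177, 184 and 169 FPKM in IgM and at 211, 219, 237, 223 and 217 FPKM in IgG1 replicates 1 to 5. Every IgG1 library was above every IgM library. The mean rose by 23.6%, from 179 ± 6.79 to 222 ± 9.73 FPKM (SD, n = 5 each; log2 difference 0.30, SE 0.05, limma adjusted p = 1.67e-04), and all 20 other settings tried kept that call, with log2 differences from 0.27 to 0.35. Mgat3 (chromosome 15, 80173721 to 80215519, plus strand), which adds the bisecting GlcNAc, was listed at 0 in 9 libraries and at 0.108 FPKM in IgM replicate 2. A listed 0 can also be a failed estimate, so no fold was computed for it.

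Fut8 (chromosome 12, 77238125 to 77476338, plus strand), which adds the core fucose, was abundant in both groups and somewhat lower in IgG1 cells. It was at 264, 246, 245, 231 and 252 FPKM in IgM and at 186, 205, 214, 188 and 224 FPKM in IgG1 replicates 1 to 5. The groups did not overlap, with IgG1 replicate 5 close to the lowest IgM library. The mean fell by 18.0%, from 248 ± 12.0 to 203 ± 16.2 FPKM (SD, n = 5 each; log2 difference -0.29, SE 0.06, limma adjusted p = 0.00106). With the trends removed its log2 difference was -0.05 (adjusted p = 0.542), so the call ended.

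The 2 galactosyltransferases stood well below Mgat1, Mgat2, Fut8 and St6gal1 in both groups. B4galt1 (chromosome 4, 40804602 to 40854005, minus strand), the main enzyme that adds galactose to antibody glycans, was at 21.6, 24.0, 21.96, 21.8 and 18.1 FPKM in IgM and at 23.6, 28.4, 21.7, 25.1 and 32.4 FPKM in IgG1 replicates 1 to 5. The groups overlapped, and IgG1 replicates 1 and 3 lay within the IgM range. Means were 21.5 ± 2.12 and 26.2 ± 4.23 FPKM (SD, n = 5 each; log2 difference 0.27, SE 0.12, limma adjusted p = 0.0912), so B4galt1 did not pass. It did pass under quantile normalization (0.33, adjusted p = 0.0365), with the trends removed (0.34, adjusted p = 0.0328) and when IgG1 replicate 3 was left out (0.33, adjusted p = 0.0463).

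B4galt3 (chromosome 1, 171270328 to 171276896, plus strand), a second enzyme with the same activity, was at 11.4, 6.92, 6.75, 9.10 and 6.07 FPKM in IgM and at 2.62, 4.89, 4.54, 2.83 and 7.43 FPKM in IgG1 replicates 1 to 5. IgG1 replicate 5 lay above 3 of the IgM libraries. Its mean fell by 44.5%, from 8.04 ± 2.18 to 4.46 ± 1.94 FPKM (SD, n = 5 each; log2 difference -0.77, SE 0.23, limma adjusted p = 0.0145). The call ended without the filter on low genes (adjusted p = 0.0987) and under quantile normalization (-0.58, adjusted p = 0.0519), and the value was -0.47 with a pseudocount of 5. Of the 5467 annotated exon bases of B4galt3, 791 also belong to Ppox, an enzyme of haem synthesis on the opposite strand, and the library kit does not mark strand, so reads there cannot be told apart. Ppox averaged 25.8 ± 4.28 against 13.7 ± 3.15 FPKM in these groups (log2 difference -0.88, limma adjusted p = 1.68e-04), so it moved in the same direction, and its part in the B4galt3 value was not tested. The exon overlaps found for Man1a, Man2a1, Mgat2, Fut8 and St6gal1 covered 58 to 200 bases each.

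St6gal1 (chromosome 16, 23224740 to 23360350, plus strand), which adds the terminal alpha 2,6 sialic acid, showed the smallest adjusted p of the 10. It was at 317, 301, 306, 288 and 283 FPKM in IgM and at 186, 199, 211, 197 and 201 FPKM in IgG1 replicates 1 to 5. A wide gap separated the lowest IgM from the highest IgG1 library. The mean fell by 33.6%, from 299 ± 13.8 to 199 ± 8.66 FPKM (SD, n = 5 each; log2 difference -0.59, SE 0.05, limma adjusted p = 9.24e-08). The call held in all 20 other settings, with log2 differences from -0.64 to -0.48, and with the trends removed it was -0.48 (adjusted p = 1.56e-06). Among tested genes, the absolute difference of St6gal1 was larger than that of 75.9%, and its coefficient of variation over libraries was 4.61% in IgM and 4.36% in IgG1.

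**Figure D3:**
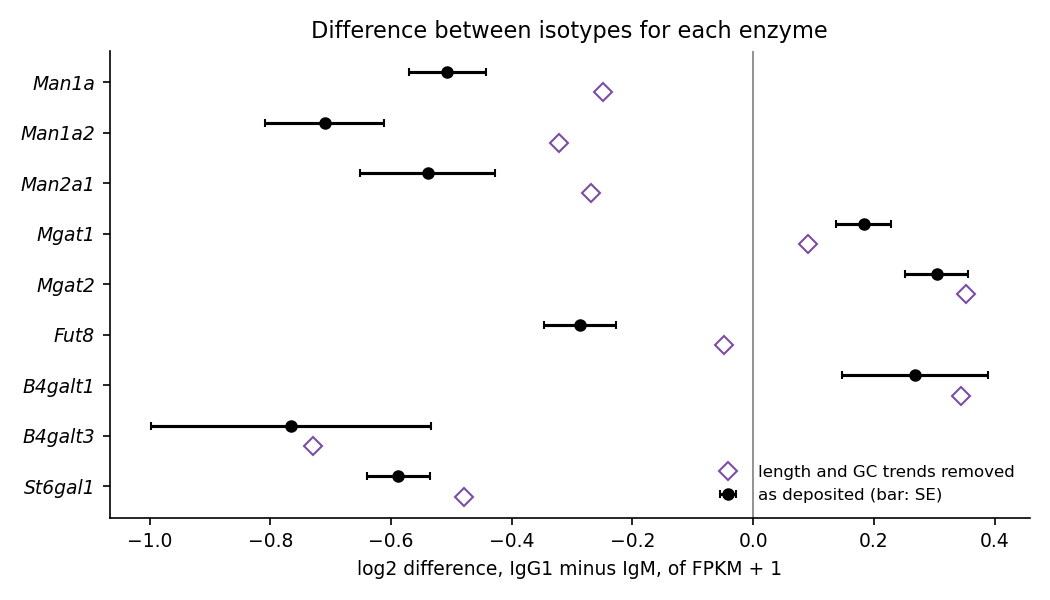
Log2 difference, IgG1 minus IgM (horizontal axis), of FPKM plus 1 for each tested enzyme (vertical axis), where filled points with SE bars are from the values as deposited and open diamonds are from values with length and GC trends removed. Fut8 moves from -0.29 to -0.05, whereas Mgat2, B4galt3 and St6gal1 stay near their first values.

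Ratios between enzymes in the same library are free of any scaling of the whole library, and they ask whether the mRNAs of neighbouring steps moved together. Of 7 ratios fixed by the roles of the enzymes, 6 could be computed, since Mgat3 was at 0. St6gal1 stood at 14.7, 12.6, 13.9, 13.2 and 15.6 times the level of B4galt1 in IgM and at 7.91, 6.99, 9.71, 7.83 and 6.20 times in IgG1 replicates 1 to 5. The ratio of these 2 mRNAs was lower in every IgG1 library than in any IgM library. The ranges of the single genes fixed this in advance: whichever libraries are combined, St6gal1 over B4galt1 is higher in IgM than in IgG1. The mean ratio was 14.0 ± 1.20 against 7.73 ± 1.31 (SD, n = 5 each; log2 difference -0.87, SE 0.12, exact two-sided permutation test, p = 0.00794, or 0.0119 after adjustment over 6 ratios). No smaller p can arise from 2 groups of 5. For the ratio of St6gal1 to B4galt1 it is thus no support beyond the levels.

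Fut8 and Man2a1 also moved apart from Mgat1. Fut8 was at 0.687 ± 0.0291 of the level of Mgat1 in IgM and at 0.496 ± 0.0414 in IgG1 libraries (SD, n = 5 each; log2 difference -0.47, exact permutation p = 0.00794, adjusted p = 0.0119). With length and GC trends removed, a setting added for the ratios after the data were seen, this came to -0.14 (adjusted p = 0.0381). Man2a1 was at 0.0692 ± 0.00371 of Mgat1 in IgM and at 0.0414 ± 0.00553 in IgG1 libraries (log2 difference -0.75, exact permutation p = 0.00794, adjusted p = 0.0119, and -0.36 with the trends removed). In both ratios the groups did not overlap. This was fixed in advance by the levels of the single genes. Every IgG1 library was lower in Fut8 and Man2a1, and higher in Mgat1, than every IgM library. As for St6gal1 to B4galt1, the exact permutation p of 0.00794 for these 2 ratios is thus no support beyond the levels.

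The 2 galactosyltransferases moved apart, whereas the ratios of Man1a to Man1a2 and of Mgat2 to Mgat1 did not pass. B4galt1 stood at 2.80 ± 0.643 times the level of B4galt3 in IgM and at 6.56 ± 2.23 times in IgG1 libraries (SD, n = 5 each; log2 difference 1.20, SE 0.27, exact permutation p = 0.00794, adjusted p = 0.0119), where the limit on B4galt3 from Ppox holds too. Man1a stood at 5.42 ± 0.436 times Man1a2 in IgM and at 6.38 ± 1.02 times in IgG1 libraries, with overlap (log2 difference 0.22, SE 0.12, exact permutation p = 0.0952, adjusted p = 0.0952). Without IgG1 replicate 4 that difference was 0.30 (adjusted p = 0.00952), and with the trends removed 0.07 (adjusted p = 0.556). Mgat2 stood at 0.497 ± 0.0239 of Mgat1 in IgM and at 0.542 ± 0.0352 in IgG1 libraries, also with overlap (log2 difference 0.12, SE 0.05, exact permutation p = 0.0556, adjusted p = 0.0667). This difference passed without IgM replicate 3 (0.14), IgM replicate 4 (0.14) or IgG1 replicate 1 (0.15), each at adjusted p = 0.0476, and with the trends removed (0.26, adjusted p = 0.0119).

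**Figure D4:**
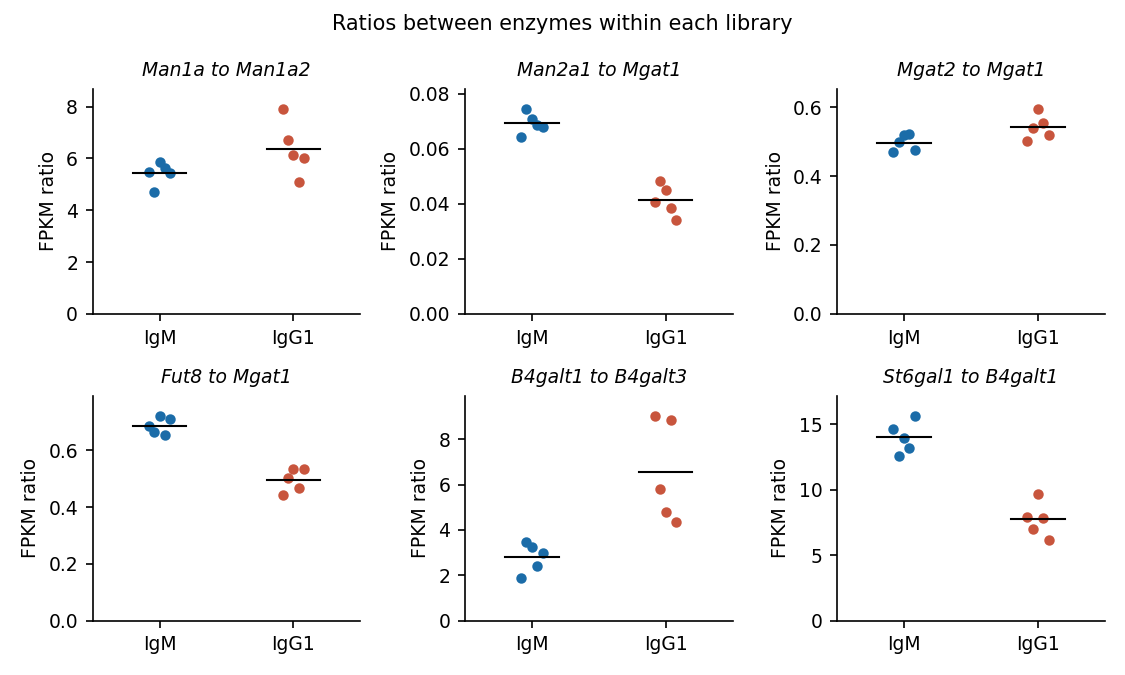
FPKM ratio of 2 enzymes within each library (vertical axes from 0) in IgM (blue) and IgG1 (red), where each point is a library and each bar a group mean. The groups do not overlap for Man2a1 to Mgat1, Fut8 to Mgat1, B4galt1 to B4galt3 and St6gal1 to B4galt1, and they overlap for Man1a to Man1a2 and Mgat2 to Mgat1.

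The order of the enzymes by level differed between the groups in the middle of the range. In IgM libraries the order was Mgat1, St6gal1, Fut8, Man1a, Mgat2, Man1a2, Man2a1, B4galt1, B4galt3 and Mgat3, and no neighbours in it had overlapping ranges. In IgG1 libraries Mgat1 again led, followed by Mgat2, Fut8, St6gal1, Man1a, B4galt1, Man1a2, Man2a1, B4galt3 and Mgat3. There the ranges of Mgat2 and Fut8, of Fut8 and St6gal1, and of B4galt1 and Man1a2 overlapped. Mgat2 stood in place 5 in IgM and place 2 in IgG1 libraries, and St6gal1 in place 2 and place 4, where Fut8 was above it in 3 of 5 libraries. Mgat1, St6gal1, Fut8, Mgat2 and Man1a each lay above at least 94.3% of all tested genes by mean level, and B4galt3 above 35.9%.

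The genes around these enzymes were followed in 10 lists by function. Of 63 listed genes, 52 were measured and 13 of them (25.0%) passed, 6 higher and 7 lower, against 38.3% of all tested genes. Their median log2 difference was -0.05, that of all tested genes. Of 5 genes that trim the glycan before Man1a, 1 was lower and 0 higher: Manea, an endomannosidase that takes off glucose-capped mannose and itself works in the Golgi, was at 70.3 ± 4.60 against 32.7 ± 4.21 FPKM in IgM and IgG1 libraries (SD, 5 libraries each; log2 difference -1.09, limma adjusted p = 6.65e-08, and -0.72 with length and GC trends removed). None of 4 other mannosidases and branching enzymes passed in limma, with 0 at an unadjusted p under 0.05. Among them were Man2a2, the second class II mannosidase, at 17.5 ± 2.72 against 17.4 ± 1.64 FPKM and Mgat4a, which adds a further branch, at 8.34 ± 1.32 against 7.66 ± 1.17 FPKM.

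Other enzymes for galactose and sialic acid averaged below B4galt1 and St6gal1 in both groups, although not all of them were below B4galt3. Of 2 other galactosyltransferases measured, 1 passed: B4galt5, best known for making lactosylceramide, was at 0.732 ± 0.595 against 2.75 ± 1.15 FPKM (log2 difference 1.12, limma adjusted p = 0.00394), with overlap between the groups, and its log2 difference ran from 0.43 to 1.94 with pseudocounts of 5 and 0.1. It entered the test only through its level in IgG1 libraries, since its IgM mean is under the filter of 1 FPKM, so its call is no support for the list. None of 5 other sialyltransferases passed in limma, with 2 at an unadjusted p under 0.05. The highest of these were St3gal1, at 4.29 ± 1.21 against 6.04 ± 0.528 FPKM (limma adjusted p = 0.073), and St3gal6, at 7.81 ± 3.56 against 4.33 ± 1.66 FPKM (limma adjusted p = 0.0883). St3gal1 passed as higher under quantile normalization (0.63, adjusted p = 0.0137), with the trends removed (0.56, adjusted p = 0.029) and when IgM replicate 4 was left out (0.53, adjusted p = 0.0451). St3gal6 passed as lower when IgM replicate 1 (-0.88, adjusted p = 0.023) or IgM replicate 2 (-0.83, adjusted p = 0.0456) was left out. St6gal1 thus stood far above every other sialyltransferase measured, in both groups.

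The lists of genes that make the donor sugars are small, and their counts stand beside 18.1% higher and 20.2% lower among all tested genes. For UDP-GlcNAc and UDP-galactose, 2 of 8 measured genes rose and 0 fell. Galk1, a galactose kinase, was at 33.5 ± 3.86 against 53.9 ± 5.96 FPKM (log2 difference 0.67, limma adjusted p = 3.93e-05), and it was higher in every IgG1 library than in any IgM library. For CMP-sialic acid, 1 of 5 rose and 2 fell. Cmas, which activates sialic acid to CMP-sialic acid, was at 97.9 ± 4.35 against 75.3 ± 6.49 FPKM (log2 difference -0.38, limma adjusted p = 4.33e-04), and Cmah, which converts the Neu5Ac form to Neu5Gc, at 62.4 ± 4.13 against 42.1 ± 2.68 FPKM (log2 difference -0.56, limma adjusted p = 2.28e-05). With length and GC trends removed Cmah no longer passed (-0.11, adjusted p = 0.306). Nans, which makes the phosphate form of sialic acid, rose from 116 ± 3.65 to 138 ± 9.41 FPKM (log2 difference 0.25, limma adjusted p = 0.00409).

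For GDP-fucose, 1 of 3 measured genes was higher and 1 lower, both close to the threshold. Gmds, the first enzyme of the main route, was at 53.3 ± 7.87 against 64.3 ± 5.52 FPKM (log2 difference 0.27, limma adjusted p = 0.0384), and Fpgt, of the salvage route, at 4.20 ± 1.39 against 2.36 ± 0.376 FPKM (log2 difference -0.59, limma adjusted p = 0.0367). Each call ended under 10 of the other settings. For Gmds, 7 of these left out a single library (IgM 1, IgM 2, IgM 5, IgG1 1, IgG1 3, IgG1 4 or IgG1 5), with an adjusted p of 0.0509 to 0.112, while with the trends removed its log2 difference was 0.45 (adjusted p = 0.00131). For Fpgt, 7 also left out a single library (IgM 2, IgM 3, IgM 5, IgG1 1, IgG1 2, IgG1 3 or IgG1 4), with an adjusted p of 0.0551 to 0.10, and with the trends removed its log2 difference was -0.30 (adjusted p = 0.296). Among 5 Golgi transporters of donor sugars 1 passed: Slc35c2, a relative of the GDP-fucose transporter, rose from 43.0 ± 5.48 to 55.4 ± 4.82 FPKM (log2 difference 0.36, limma adjusted p = 0.00621), and its call ended with the trends removed (0.20, adjusted p = 0.145).

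Of 12 genes for enzyme retention in the Golgi and ion balance, 3 fell (25.0%) and 0 rose, where 20.2% of all tested genes were lower and 18.1% higher. Golph3, which binds the tails of Golgi enzymes and keeps them in place, was at 129.7 ± 12.9 against 95.6 ± 5.04 FPKM (log2 difference -0.43, limma adjusted p = 1.23e-04, and -0.22 with the trends removed, adjusted p = 0.0233). Its relative Golph3l was at 38.0 ± 1.91 against 28.6 ± 2.46 FPKM (log2 difference -0.40, limma adjusted p = 0.00211, and -0.21 with the trends removed, adjusted p = 0.084). Cog4, a subunit of the tethering complex COG, was at 20.7 ± 3.30 against 14.5 ± 1.96 FPKM (log2 difference -0.48, limma adjusted p = 0.00809). None of 3 measured proteases and sialidases passed in limma, with 1 at an unadjusted p under 0.05. Of these, Sppl3, a protease that releases Golgi enzymes, was at 6.03 ± 2.64 against 6.06 ± 3.14 FPKM and Neu1, a sialidase, at 8.58 ± 1.59 against 8.61 ± 1.87 FPKM.

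**Figure D5:**
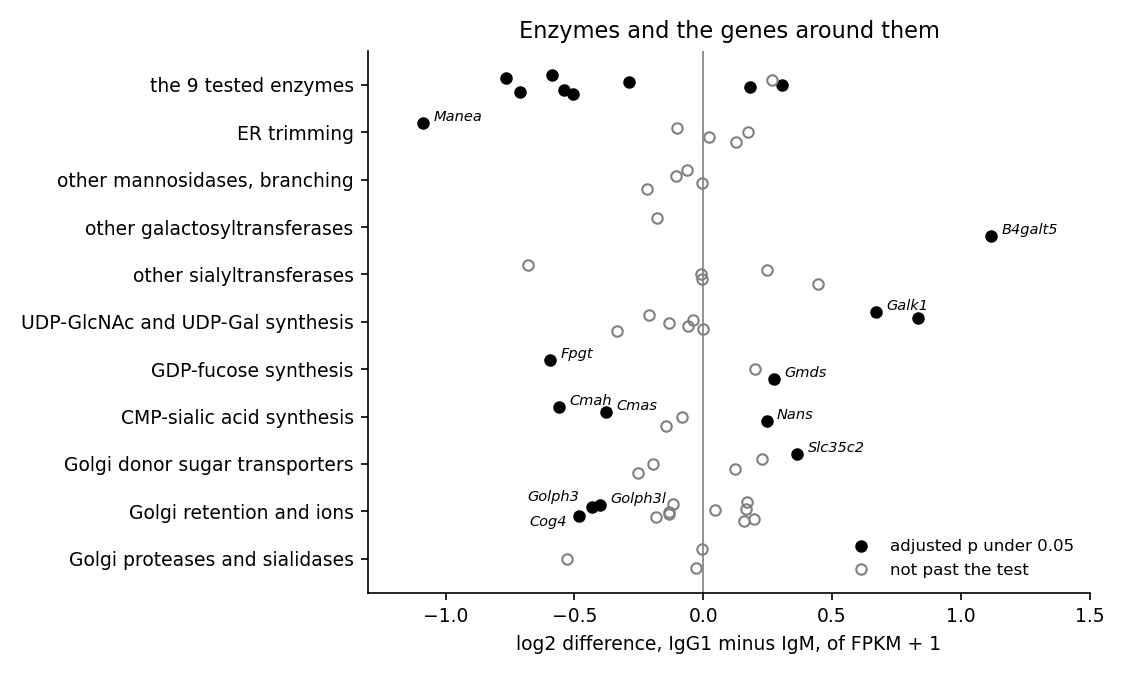
Log2 difference, IgG1 minus IgM (horizontal axis), of FPKM plus 1 for the 9 tested enzymes and for 52 measured genes in 10 lists (vertical axis), where filled points passed at an adjusted p under 0.05 and open points did not. Of the enzymes 8 of 9 points are filled, and of the listed genes 13 of 52.

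B4galt3 had the largest absolute log2 difference of the 9 tested enzymes on the log2(FPKM + 1) scale, but under 6 of the 20 other settings that of Man1a2 was larger (-0.63 against -0.47 with a pseudocount of 5, -0.69 against -0.58 under quantile normalization, and when IgM replicate 1 or 4 or IgG1 replicate 1 or 4 was left out). The 3 genes outside the lists that followed the pattern of B4galt3 over the 10 libraries most closely, among 9604 tested genes, were Atf2 (Pearson r = 0.947 of log2 levels), a transcription factor, Uprt (r = 0.944) and Zfp410 (r = 0.943), a zinc finger protein. Mean levels in IgM against IgG1 libraries were 24.4 against 14.0 FPKM for Atf2, 4.51 against 2.81 FPKM for Uprt and 16.0 against 11.5 FPKM for Zfp410. All 4 genes share the difference between the groups, which alone raises such an r, and they share the libraries and their depth.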

How the data were processed

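Per the labels' protocols, RNA came from a miRNeasy Micro extraction and entered a SMART-Seq mRNA HT LP library preparation. Build GRCm38 and the tools HISAT2 2.1.0, Cufflinks 2.2.1 and Cuffdiff stand in the submitters' processing notes, without their settings or roles, and the gene annotation behind the values is unknown here. The deposited values are FPKM per gene, per the file headers, in 1 file per library, with no scaling across libraries stated. FPKM is a share of a library, so abundant transcripts lower the rest, and gene values rest on assigning reads among transcripts.

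Of 47719 identifiers, 47305 matched GENCODE M21 (GRCm38). Depth was estimated from whole-fragment steps of genes with 1 transcript, assuming fragments of 200 bases, and gives relative precision only. The 9900 genes averaging 1 FPKM or more were tested on log2(FPKM + 1), a scale that understates changes of low genes, with limma 3.58.1 in R 4.3.3 (trend and robust, group as the only term, two-sided, Benjamini-Hochberg). Ratios were tested by exact permutation over 252 arrangements. Python 3.11.15, numpy 2.4.6, pandas 2.3.3 and matplotlib 3.10.9 were used. The limma script was tested on simulated data. Named genes were all 10 enzymes and, from each list, up to 3 genes that passed by smallest p, or, where none passed, the 2 with the highest level. Also named were the 3 genes most correlated with the enzyme that differed most, outside the lists and immunoglobulin genes. Ppox was named after its values were seen, as were genes of lists given as not tested. Values of some listed genes and markers are not reported here, although sums and counts include them. Members and lists were chosen with earlier results of these data known. Alternatives were a pseudocount of 0.1 or 5, a filter at 5 FPKM or none, 3 scalings, eBayes without trend or robust, a replicate block, removal of length and GC trends (natural splines, 4 degrees of freedom each, longest transcript, values for 99.8% of tested genes) and each library left out. No batch is labelled and none was modelled.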

Additional observations from a re-analysis of the deposited data

Results flagged for a closer look

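In groups of 5, a value counted as apart when its gap to the nearest other value was over 0.71 of the range. Of 69 such groups of levels and ratios, 4 had one, a share close to the about 1 in 20 that chance gives. IgM replicate 2 was apart in 3 of them: Man1a2 at 47.9 FPKM against 37.3 to 40.1 in the other IgM libraries, Man2a1 at 27.6 FPKM against 24.0 to 24.8, and Mgat3 at 0.108 FPKM where the others are listed at 0. The Mgat3 group had to meet the rule, since only 1 of its values is above 0. Without IgM replicate 2 the log2 differences were -0.65 for Man1a2 (limma adjusted p = 8.32e-05) and -0.50 for Man2a1 (limma adjusted p = 0.00384). Man2a2 was at 14.5 FPKM in IgG1 replicate 3 against 17.6 to 18.3 FPKM in the other IgG1 libraries, and without it the log2 difference was 0.06 (limma adjusted p = 0.774).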

How the results depend on the processing

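The 20 alternatives moved few counts by over 1.5 times. Without limma's trend and robust settings 1 enzyme was higher in place of 2. With length and GC trends removed, 1320 of all tested genes were lower in place of 2001, and 4 listed genes were lower in place of 7. Over the alternatives 1 to 3 enzymes were higher and 4 to 6 lower. Man1a, Man1a2, Mgat2 and St6gal1 kept direction and call in all 20. The replicate numbers are shared between the groups, and the labels do not say whether they pair the libraries. Deviations of same-numbered libraries correlated at -0.04 to 0.10, which cannot settle this. For IgM replicates 1, 3 and 4 the most similar IgG1 library had the same number. In the other direction this held only for IgG1 replicate 3. With the replicate block, 3701 genes passed in place of 3792, and 2 enzymes were higher and 6 lower. In the paired version of the ratio test, which cannot go below 0.0625, the differences of -0.75 (Man2a1 to Mgat1), -0.47 (Fut8 to Mgat1), 1.20 (B4galt1 to B4galt3) and -0.87 (St6gal1 to B4galt1) came to adjusted p = 0.075, so this pairing cannot pass. With 1 library left out, the difference of Man1a to Man1a2 ran from 0.14 to 0.30 and that of Mgat2 to Mgat1 from 0.089 to 0.15, and with length and GC trends removed (added after the data were seen) the latter was 0.26. Genes that had not passed turned sign around 0: Man2a2 came to 0.03 with median-ratio scaling, 0.073 with quantile normalization and 0.063 with trends removed, and ran from -0.076 to 0.071 with 1 library left out. Mgat4a came to 0.05 with quantile normalization and 0.23 with trends removed. Sppl3 came to 0.004 with median-ratio scaling and 0.17 with quantile normalization, and ran from -0.24 to 0.22 with 1 library left out. Neu1 came to 0.027 and 0.138 with these 2 scalings and ran from -0.068 to 0.11. The cause was not tested. The files give no counts, so no counting interval can be given for low genes such as Mgat3. The libraries of a group varied by 27.1% (IgM) and 43.5% (IgG1) of the mean for B4galt3, which limits its precision.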

Other observations

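Several enzymes that could extend or cap the same glycans were near or at 0 and went into no test. Mgat5, which starts a further branch, had means of 0.307 FPKM in IgM and 0.136 FPKM in IgG1 libraries, and Mgat5b was listed at 0 in every library. The galactosyltransferases B4galt2, B4galt4 and B4galt6 had means of at most 0.0572 FPKM in either group. St6gal2, the other enzyme that makes alpha 2,6 sialic acid links, had a mean of 0.0231 FPKM in IgM libraries and was listed at 0 in IgG1 libraries, and St3gal4 had means of 0.234 and 0.348 FPKM. Gfpt2, the second form of the enzyme that commits sugar to UDP-GlcNAc, was listed at 0 in all 10 libraries, while its relative Gfpt1 was at 29.5 ± 1.75 against 23.6 ± 5.84 FPKM (SD, n = 5 each; limma adjusted p = 0.0517).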
